A study of Homo sapiens with 56 samples.

Results

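DLD1 is an established human colorectal cancer cell line of epithelial type, and its genotype is given as wild-type in every group described here. The 8 DLD1 libraries of the series, of 56 in all, were chosen by their cell line label: 4 came from cells given 10 mM 2-methylisocitrate (2-MiCit) and 4 from control cells given its vehicle, water. The series applied the same treatment to 7 colorectal cancer lines to read out the response of tumour cells to a bacterial metabolite. RNA was measured by sequencing of stranded mRNA libraries; how long the cells were treated is not given in the labels. Replicates are numbered 1 to 4 in each group. No label states whether a replicate was its own culture, and the p-values reflect library-to-library spread only, which could be technical.

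2-MiCit is an intermediate of the methylcitrate cycle, by which many bacteria and fungi break down propionate, and it resembles isocitrate, an intermediate of the tricarboxylic acid cycle, with an added methyl group. Many of the genes below belong to the integrated stress response: stress kinases phosphorylate the translation factor eIF2 alpha, general protein synthesis falls, and the transcription factor ATF4 is translated more and turns on genes for amino acid uptake and stress signalling. Others are immediate early genes, which growth factor and stress kinases turn on without new protein synthesis, and which include the JUN, FOS and ATF proteins that pair to form the AP-1 transcription factors.

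The DLD1 libraries held 14.2 to 16.6 M counts. Of 13 colon epithelial markers 12 were measured, and they summed to between 11700 and 13100 CPM, the count of a gene scaled to the size of its library, in 2-MiCit libraries and between 11400 and 13600 CPM in control libraries. Of 10 fibroblast, 10 leukocyte and 8 endothelial markers only 4, 3 and 3 were measured. Each of these sets summed to at most 8.71 CPM in any DLD1 library. Neural markers, 5 of 8 measured, summed to between 79.6 and 91.0 CPM with 2-MiCit and between 94.6 and 119 CPM in controls. Most of it was TUBB3, a tubulin that many tumour lines express. A CPM value is a share of the library, so fewer cells that express a gene and less RNA of that gene per cell cannot be told apart.

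Control replicate 1 stood apart from the other DLD1 libraries. Relative to the mean of the other 7, its log2 level changed by -0.235 for each doubling of transcript length, while the slopes of the others lay between -0.0234 (control replicate 2) and 0.116 (2-MiCit replicate 1). With genes ranked by transcript length and cut into 5 equal bins, its median level in the longest bin was -0.482 (log2) relative to the other libraries, and in bin 2 it was 0.256. Its correlation with the other libraries was 0.922 to 0.955, against up to 0.982 between other pairs. Steep slopes were not unique to it in the 4 lines of the same count table, where the steepest outside DLD1 was 0.183 in size, in SW948. Results are therefore given for all 8 libraries and for the 7 left without control replicate 1, called here the 8-library and the 7-library fit.

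**Figure D1:**
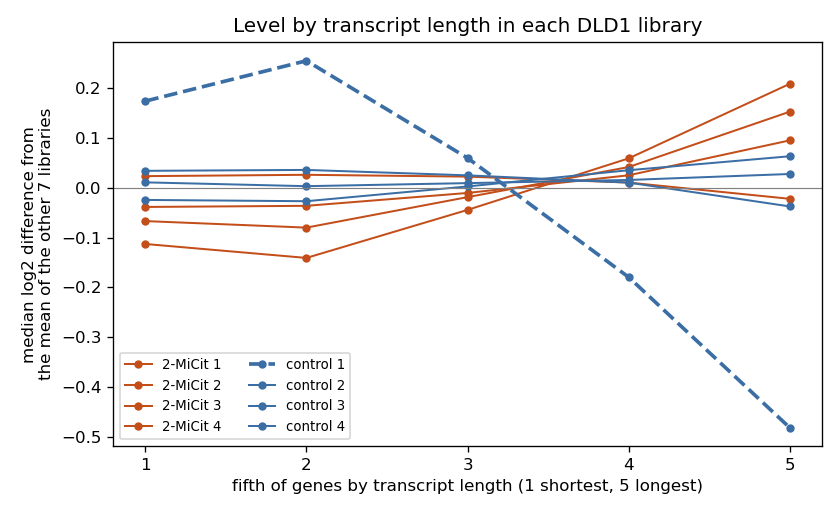
Median log2 difference of each DLD1 library from the mean of the other 7 (vertical axis) in 5 equal bins of genes by transcript length (horizontal axis, shortest to longest), with 2-MiCit libraries in orange and control libraries in blue. Control replicate 1 (dashed) lies at 0.256 in bin 2 and at -0.482 in the longest bin, the other control libraries stay near 0, and 2-MiCit replicates 1, 2 and 4 rise with length, to 0.209 in 2-MiCit replicate 1.

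The trend with length also moved with the treatment. In the 8-library fit the median log2 fold change, 2-MiCit over control, was -0.085 in the shortest bin of genes and 0.165 in the longest. In the 7-library fit the same medians were -0.0459 and 0.0916. Fold changes of single genes below still hold this trend. With the trend removed, 19 of the 20 genes called in the 8-library fit kept their call. HHLA1 lost it (edgeR adjusted p 0.0522). In the 7-library fit with the trend removed all 20 were called. List medians with the trend removed are given for the ATF4, ERK feedback, FOXO, clock and heat shock lists and the 4 lists of shortest transcripts.

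With 10 mM 2-MiCit, a small number of genes rose in DLD1 cells, 4 of them from the list of ATF4 stress effectors and 3 from that of AP-1 and immediate early genes, with ATF3 in both lists. In the 8-library fit 20 of 13551 tested genes were higher at an adjusted p below 0.05 (0.148% of tested genes) and 0 were lower, with 1227 higher and 1171 lower at an unadjusted p below 0.05. Called genes were 1.43 to 3.38 times higher, and 8 of them passed a fold change of 2. The 7-library fit called 163 of 13693 genes higher (1.19%) and 20 lower (0.146%), with a median log2 fold change of 0.54 among the higher and -0.40 among the lower. All 20 genes of the 8-library fit were among the 163, and the spread between replicates (biological coefficient of variation) was 0.183 with control replicate 1 and 0.12 without it. In the 8 libraries, 1050 of the 13551 tested genes were higher and 826 lower with no overlap of the groups. Without control replicate 1 these were 1335 and 1219 of 13693. Every called gene was without overlap in its own fit, so separate groups, where described below, add nothing to a call. DESeq2 called 347 higher and 164 lower in the 8 libraries. Adjusted p-values below are from edgeR's quasi-likelihood test over all tested genes. Every list below is to be read beside all tested genes. In the 8-library fit 0.148% were called higher, 0 lower, and 6824 of 13551 lay above 0 (median log2 fold change 0.00304). In the 7-library fit 1.19% were called higher, 0.146% lower, and 6947 of 13693 lay above 0 (median 0.00334).

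**Figure D2:**
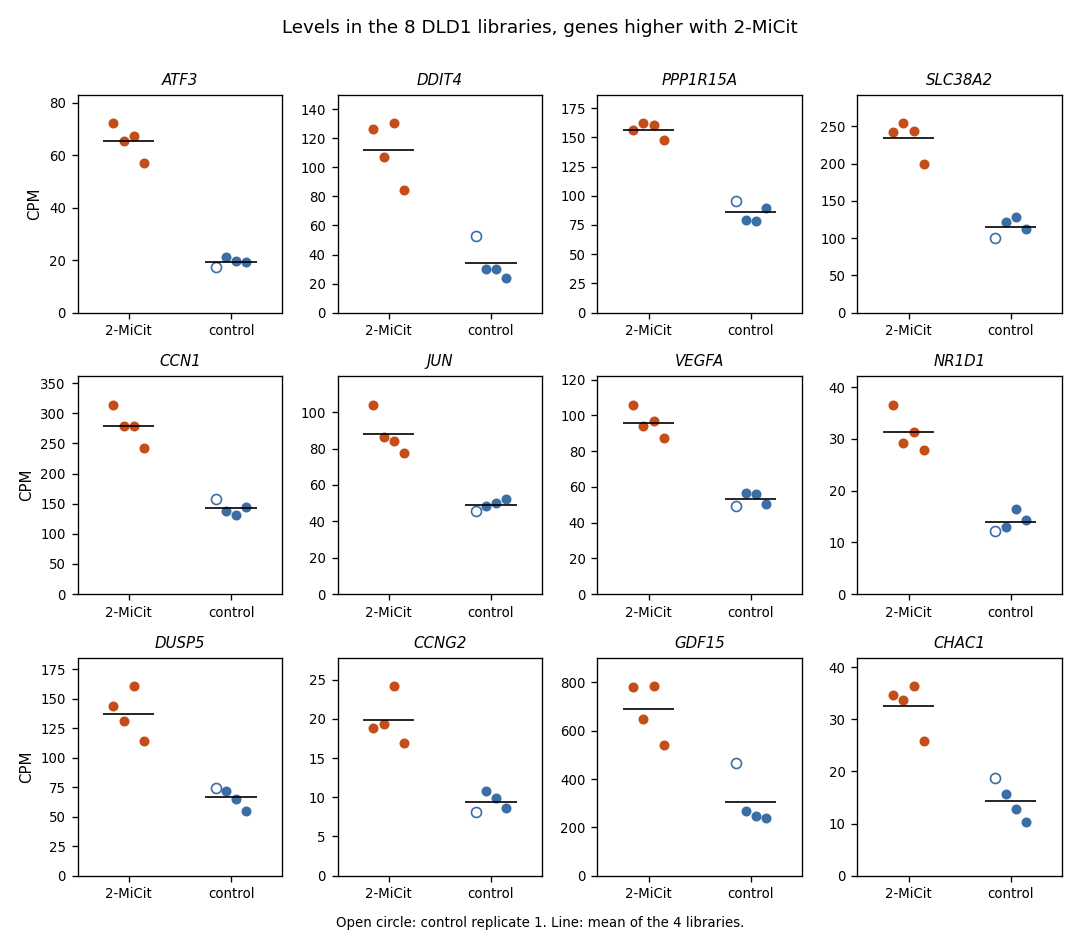
Level in CPM (vertical axis, from 0) of 12 genes in the 4 2-MiCit libraries (orange, left) and the 4 control libraries (blue, right) of DLD1, with control replicate 1 as an open circle and the mean as a line. In each panel the 4 2-MiCit libraries lie above the 4 control libraries, and for DDIT4 and GDF15 control replicate 1 is the highest control, at 52.9 and 467 CPM.

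ATF3, a stress-induced transcription factor that is both a target of ATF4 and a partner of JUN, had the smallest p of all genes. It had 72.2, 65.2, 67.5 and 57.2 CPM in 2-MiCit libraries, against 17.4, 21.1, 19.6 and 19.3 CPM in control libraries. The groups lie far apart, and each 2-MiCit library exceeds the highest control more than 2-fold. The fold change was 3.38 (log2 1.76, SE 0.10, adjusted p 0.000324), and 3.28 in the 7-library fit (log2 1.71, SE 0.09, adjusted p 3.63e-05). It was called in each of the 8 fits that leave out 1 library; the other 18 genes with a symbol lost their call in 4 to 7 of those fits and kept their direction in all of them.

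PPP1R15A (GADD34) recruits a phosphatase to eIF2 alpha and so closes the loop of the integrated stress response. It had 156, 162, 161 and 147 CPM with 2-MiCit, against 95.7, 78.8, 78.8 and 89.4 CPM in controls. The 4 treated libraries are close together and clear of all controls, with a fold change of 1.83 (adjusted p 0.0115), or 1.91 in the 7-library fit (adjusted p 0.000453). DDIT4 (REDD1), an inhibitor of the growth kinase complex mTORC1, had 127, 107, 130 and 84.3 CPM with 2-MiCit, against 52.9, 30.0, 30.1 and 23.9 CPM in controls. Control replicate 1 is the highest control, and the fold change was 3.28 with it (SE of log2 0.25, adjusted p 0.0472) and 4.01 without it (SE of log2 0.17, adjusted p 0.00224). SLC38A2 (SNAT2), a transporter that takes up glutamine and other small neutral amino acids, had 242, 254, 243 and 200 CPM with 2-MiCit, against 100, 122, 128 and 112 CPM in controls, and rose 2.03-fold (adjusted p 0.0115), or 1.95-fold in the 7-library fit (adjusted p 0.00198).

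Short motifs were looked for in RefSeq windows of the called genes. They were those given below, and CACGTG (E-box) and GTAAACA (forkhead), whose matches are counted but not printed. The windows run from 250 bases before to 50 bases after an annotated start, and 15 of the 19 called genes with a symbol matched the RefSeq table, with 22 windows. The stretches printed are 60 bases that include the match, for each of these genes whose window held, on either strand, TGACGTCA (CRE, the site of CREB and ATF factors), TGATGNAA (the composite site of C/EBP and ATF factors) or TGACTCA or TGAGTCA (AP-1). They are shown because ATF3 and JUN are themselves among the genes that rose; CHAC1 and MAFF, called in the 7-library fit, were added after their values were seen. Build is GRCh38.p14, sequences run 5′ to 3′ on the gene's strand, and capitals mark the match.
ATF3, chr1:212565190-212565249, plus strand: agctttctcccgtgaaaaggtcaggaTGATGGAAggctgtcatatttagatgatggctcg
PPP1R15A, chr19:48872337-48872396, plus strand: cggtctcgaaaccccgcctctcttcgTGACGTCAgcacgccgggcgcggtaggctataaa
GABARAPL1, chr12:10212817-10212876, plus strand: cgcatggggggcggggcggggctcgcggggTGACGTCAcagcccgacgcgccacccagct
CHAC1, chr15:40953236-40953295, plus strand: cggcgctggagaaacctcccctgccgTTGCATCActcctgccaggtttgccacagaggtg
MAFF, chr22:38201914-38201973, plus strand: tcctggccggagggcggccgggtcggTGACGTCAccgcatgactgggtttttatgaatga
LAMB3, chr1:209651408-209651467, minus strand: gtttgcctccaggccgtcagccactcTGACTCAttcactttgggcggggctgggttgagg
KLHL24, chr3:183635394-183635453, plus strand: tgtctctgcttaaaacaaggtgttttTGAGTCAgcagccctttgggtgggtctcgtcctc
The match lies 191 bases before the start in ATF3, 58 in PPP1R15A, 30 in GABARAPL1, 209 in CHAC1 (on the reverse strand), 54 in MAFF, 67 in LAMB3 and 203 in KLHL24. Of the 35116 windows of all genes, 1.85% hold the CRE, 3.62% the composite site and 4.95% an AP-1 site. Among the 22 windows of the 8-library genes, 2, 1 and 2 windows hold them (9.09%, 4.55% and 9.09%), which is too few to rank. The 201 windows matched for the 7-library fit cover 121 of the 163 higher genes, and there the shares are 3.48%, 5.97% and 7.96%. The E-box is in 7.26% of all windows, 4.55% of the 22 and 9.95% of the 201. The forkhead motif is in 3.42%, 0% and 3.48%. Windows of a gene can overlap, so a site can be counted more than once. A match describes the letters of a window and shows no binding.

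Genes known as ATF4 targets lay almost all above 0, and 14 were called in the 7-library fit. The list of ATF4 stress effectors held 31 genes, 28 of them tested. In the 8-library fit 4 were called higher (ATF3, PPP1R15A, SLC38A2 and DDIT4), 0 were called lower and 27 lay above 0, with a median log2 fold change of 0.36 beside 0.00304 for all tested genes. In the 7-library fit 14 were called higher, 0 lower and 28 lay above 0, with a median of 0.41 beside 0.00334. The median was 0.42 with the length trend also removed. Called members rose 1.29-fold to 4.01-fold in that fit.

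CHAC1, which breaks down glutathione, had 34.7, 33.7, 36.4 and 25.9 CPM with 2-MiCit, against 18.8, 15.6, 12.9 and 10.3 CPM in controls. Every treated library lies above every control, and the rise was 2.54-fold in the 7-library fit (adjusted p 0.00611) but missed the threshold with all 8 libraries (2.27-fold, adjusted p 0.061). GDF15, a secreted stress hormone that is also a p53 target, had 779, 647, 784 and 542 CPM with 2-MiCit, against 467, 266, 248 and 240 CPM in controls. Its 3 lower controls are close together and control replicate 1 lies far above them, so that the fold change was 2.74 without that library (adjusted p 0.00198) and 2.25 with it (adjusted p 0.109). SLC7A11, the cystine importer, averaged 66.9 ± 7.74 CPM with 2-MiCit (SD, n = 4) and 39.9 ± 3.97 CPM in the 3 controls other than replicate 1 (SD, n = 3), a rise of 1.68-fold (adjusted p 0.0106); control replicate 1 held 27.4 CPM. Outside the list, SLC6A9, a glycine transporter, rose 2.02-fold and CARS1, a cysteinyl-tRNA synthetase, 1.40-fold in the 7-library fit (adjusted p 0.00994 and 0.0106).

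The remaining 7 called members of the list, named after their values were seen, were ATF4 itself, DDIT3 (CHOP), TRIB3, CEBPB, VLDLR, GADD45A and JDP2. ATF4 averaged 434 CPM with 2-MiCit and 336 CPM in the 3 controls of the 7-library fit (log2 fold change 0.37, adjusted p 0.0495). DDIT3 averaged 15.1 CPM against 9.01 CPM in those controls (log2 fold change 0.75, adjusted p 0.0351). Enzymes of serine and asparagine synthesis were above 0 but not called: ASNS had a log2 fold change of 0.42 (adjusted p 0.0532), PSAT1 of 0.21, PHGDH of 0.19 and PSPH of 0.19 in the 7-library fit.

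Chaperones and other genes of the unfolded protein response, which stress in the endoplasmic reticulum turns on, lay mostly below 0. Of 20 tested, 13 lay below 0 in the 8-library fit, where 0 were called, and 17 in the 7-library fit, where 1 was called lower and 0 higher. The medians were -0.21 and -0.18 (log2), beside 0.00304 and 0.00334 for all tested genes. The called gene was HSPA5 (BiP), the main chaperone of the endoplasmic reticulum. It had 1275, 1389, 1463 and 1362 CPM with 2-MiCit, against 1880, 1812, 1730 and 1819 CPM in controls. The groups do not overlap, as in 826 genes of 13551 that were lower with all 8 libraries. The log2 fold change was -0.40 with all 8 libraries (SE 0.08, adjusted p 0.109) and -0.38 with 7 (SE 0.07, adjusted p 0.0234). XBP1, a transcription factor of this response, lay at 0.27 and HERPUD1, which serves protein disposal, at 0.16 in the 7-library fit, and neither was called.

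Immediate early and AP-1 genes included JUN and CCN1 among the called. Of 30 tested members, 3 were called higher in the 8-library fit (ATF3, JUN and CCN1) and 7 in the 7-library fit, 0 were called lower, 28 lay above 0 in each, and the median log2 fold change was 0.27 in each, beside 0.00304 and 0.00334 for all genes. JUN, the main AP-1 subunit, had 104, 86.5, 84.0 and 77.5 CPM with 2-MiCit, against 45.7, 48.5, 50.02 and 52.4 CPM in controls. Its groups are well apart (1.79-fold, adjusted p 0.0194, and 1.76-fold in the 7-library fit, adjusted p 0.00475). CCN1 (CYR61), a secreted matrix protein that YAP and immediate early signals turn on, had 314, 278, 279 and 242 CPM with 2-MiCit, against 158, 138, 132 and 144 CPM in controls, and rose 1.95-fold (adjusted p 0.0115), or 2.02-fold in the 7-library fit (adjusted p 0.00128). KLF6, a zinc finger factor, had 166, 181, 184 and 149 CPM with 2-MiCit, against 150, 99.5, 94.9 and 95.1 CPM in controls. Control replicate 1 reaches the lowest treated library, and the rise was 1.76-fold without it (adjusted p 0.00198) and 1.55-fold with it (adjusted p 0.189). FOSL2, a FOS family partner of JUN, rose 1.41-fold in the 7-library fit (adjusted p 0.023), and so did MAFF, a small MAF factor outside this list (1.58-fold, adjusted p 0.0085). DUSP1 and KLF2 of this list were also called higher in the 7-library fit (log2 0.56 and 0.84, edgeR adjusted p 0.0421 and 0.0223). With all 8 libraries they were not (adjusted p 0.189 and 0.191). FOS and EGR1 were not called in either fit: FOS averaged 5.96 CPM with 2-MiCit and 4.72 CPM in the 4 controls, and EGR1 77.6 and 64.2 CPM.

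Among phosphatases and inhibitors that dampen ERK signalling, DUSP5 rose in both fits. Of 13 tested genes of ERK feedback, 1 was called higher in the 8-library fit and 3 in the 7-library fit (all genes: 0.148% and 1.19%). The medians were 0.40 and 0.34 (log2), with 10 and 11 genes above 0. With the length trend removed these medians were 0.26 and 0.30. DUSP5, a nuclear phosphatase of ERK, had 144, 131, 161 and 114 CPM with 2-MiCit, against 74.6, 71.6, 65.2 and 54.4 CPM in controls. The lowest treated library exceeds the highest control by a wide margin (2.07-fold, adjusted p 0.0224, and 2.16-fold in the 7-library fit, adjusted p 0.00653). DUSP6, its cytoplasmic relative, rose 1.60-fold (adjusted p 0.0165) and DUSP4 rose 1.39-fold (adjusted p 0.0195) in the 7-library fit, while with all 8 libraries their adjusted p-values were 0.143 and 0.0608. The Sprouty genes SPRY1 and SPRY2 lay at -0.12 and 0.09 (log2, 7-library fit) and were not called. ERRFI1 (MIG6), an inhibitor of the EGF receptor outside this list, had 422, 404, 405 and 343 CPM with 2-MiCit, against 203, 246, 243 and 202 CPM in controls, and rose 1.76-fold (adjusted p 0.0224), or 1.71-fold in the 7-library fit (adjusted p 0.00467).

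Genes of adhesion and the cytoskeleton and targets of the growth regulator YAP were also among the called. Of 19 tested genes of YAP, TGF-beta and mesenchymal character, 3 were called higher in the 8-library fit (CCN1, ANKRD1 and NEDD9), 4 in the 7-library fit, and 0 lower. Over all genes 0.148% and 1.19% were called higher. The list's medians were 0.20 and 0.19 (log2). NEDD9, a scaffold of focal adhesions, had 29.8, 26.3, 22.1 and 26.2 CPM with 2-MiCit, against 9.41, 12.2, 11.3 and 12.7 CPM in controls. The groups do not touch (2.29-fold, adjusted p 0.0115, and 2.17-fold in the 7-library fit, adjusted p 0.00198). ANKRD1, a YAP target, averaged 53.2 ± 4.25 CPM with 2-MiCit and 30.9 ± 2.86 CPM in controls (SD, n = 4 each), and rose 1.72-fold (adjusted p 0.0194), or 1.79-fold in the 7-library fit (adjusted p 0.00198). AMOTL2, another YAP target, rose 1.34-fold in the 7-library fit (adjusted p 0.0235). LAMB3, a chain of laminin-332, had 191, 177, 187 and 181 CPM with 2-MiCit, against 101, 116, 129 and 128 CPM in controls, with no overlap (1.55-fold, adjusted p 0.0421, and 1.48-fold in the 7-library fit, adjusted p 0.0026). CDC42EP3, an effector of the GTPase CDC42, was tight within groups at 178, 170, 170 and 169 CPM with 2-MiCit, against 117, 122, 122 and 120 CPM in controls (1.43-fold, adjusted p 0.0175, and 1.42-fold in the 7-library fit, adjusted p 0.00224). TGFBI, a matrix protein that TGF-beta turns on, lay at 0.00242 (log2, 7-library fit) and was not called.

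The clock repressor NR1D1 (REV-ERB alpha) had 36.6, 29.1, 31.3 and 27.9 CPM with 2-MiCit, against 12.2, 13.0, 16.5 and 14.3 CPM in controls. All treated libraries lie above all controls, with a fold change of 2.23 (adjusted p 0.0115), or 2.14 in the 7-library fit (adjusted p 0.00247). Of 18 tested genes of the circadian clock, 1 was called higher in the 8-library fit and 3 in the 7-library fit (all genes: 0.148% and 1.19%). The medians were 0.26 and 0.20 (log2). The others called in the 7-library fit were NR1D2, the close relative of NR1D1, with 1.32-fold (adjusted p 0.0223), and RORA, the activator that competes with both, with 1.39-fold (adjusted p 0.0324). PER1 lay at 0.46 (adjusted p 0.0867), BMAL1 at 0.37, CLOCK at 0.19, CRY1 at 0.22 and DBP at -0.10 (log2, 7-library fit), and none of these was called. Clock transcripts are long (median 2874 bases, beside 1814 for all genes), and with the length trend removed the list's median was 0.16 in the 7-library fit.

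CCNG2 and KLHL24, from the list of FOXO and growth arrest genes, rose in both fits. Of 19 tested, 2 were called higher in the 8-library fit and 3 in the 7-library fit (all genes: 0.148% and 1.19%). The medians were 0.35 and 0.26 (log2), and 0.263 and 0.259 with the length trend removed. CCNG2, an unusual cyclin that accompanies growth arrest, had 18.8, 19.4, 24.2 and 16.9 CPM with 2-MiCit, against 8.11, 10.8, 9.92 and 8.63 CPM in controls, and rose 2.11-fold (adjusted p 0.0255), or 2.03-fold in the 7-library fit (adjusted p 0.00765). KLHL24, a ubiquitin ligase adaptor, had 10.6, 10.6, 11.1 and 8.78 CPM with 2-MiCit, against 4.49, 5.03, 5.75 and 3.40 CPM in controls, and rose 2.2-fold (adjusted p 0.0472), or 2.18-fold in the 7-library fit (adjusted p 0.018). Both pairs of groups are clear of each other. YPEL5 rose 1.66-fold in the 7-library fit (adjusted p 0.0217). GABARAPL1, an autophagy protein of the ATG8 family, had 122, 120, 123 and 111 CPM with 2-MiCit, against 68.2, 79.8, 84.8 and 80.6 CPM in controls (1.52-fold, adjusted p 0.0421, and 1.46-fold in the 7-library fit, adjusted p 0.00375). ULK1, the kinase that starts autophagy, rose 1.54-fold in the 7-library fit (adjusted p 0.0232). These 2 were the called members of 19 tested lysosome and autophagy genes, whose median was 0.10 (log2) in that fit.

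VEGFA, the growth factor of blood vessels, had 106, 93.8, 96.6 and 87.4 CPM with 2-MiCit, against 49.3, 56.5, 55.8 and 50.4 CPM in controls, and rose 1.81-fold (adjusted p 0.0115), or 1.77-fold in the 7-library fit (adjusted p 0.00198). It was the 1 called member of 17 tested hypoxia genes in each fit, and the list's medians were 0.05 and 0.04 (log2). Hypoxia targets such as NDRG1 (0.19) and SLC2A1, the glucose importer (0.22), were not called, and EGLN3 lay at -0.34 (log2, 7-library fit). The other named genes called with all 8 libraries were CHD2, a chromatin remodeller (1.59-fold, adjusted p 0.0189), and HHLA1 (1.77-fold, adjusted p 0.03); 1 further called gene had no symbol in the annotation used. In the 7-library fit they were 1.58-fold and 1.78-fold higher (adjusted p 0.00404 and 0.00765).

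Further genes were called in the 7-library fit and not in the 8-library fit. Over all tested genes 1.19% were called higher in the 7-library fit and 0.148% in the 8-library fit. Of 23 tested p53 targets 4 were called higher in the 7-library fit and 0 in the 8-library fit, with a median of 0.09 (log2) in the 7-library fit. They were GDF15, the cell cycle inhibitor CDKN1A (1.43-fold, adjusted p 0.0223), the death activator BBC3 (1.49-fold, adjusted p 0.023) and the nuclease AEN (1.23-fold, adjusted p 0.0266). The core targets MDM2 (0.22), BAX (-0.03), FDXR (-0.23) and TP53I3 (-0.11) were not called. RELB and NFKB2, partners in the alternative NF-kappaB pathway, rose 1.49-fold and 1.27-fold (adjusted p 0.012 and 0.0266), and were the called members of 11 tested genes of that list. TXNIP, a brake on glucose uptake, rose 1.33-fold (adjusted p 0.0217), SOX9 1.36-fold (adjusted p 0.0251) and TXNRD1 by 0.32 on the log2 scale (adjusted p 0.042). ABL2, a tyrosine kinase that acts on actin, rose 1.63-fold (adjusted p 0.00646) and FHL2, a LIM domain cofactor, 1.37-fold (adjusted p 0.00994). SLC44A3-AS1 rose 1.72-fold (adjusted p 0.00198), with the limit that the strand setting of the counting is not given, so its reads and those of overlapping genes on the opposite strand cannot be told apart. The same limit holds for NR1D1, whose end overlaps THRA on the opposite strand.

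**Figure D3:**
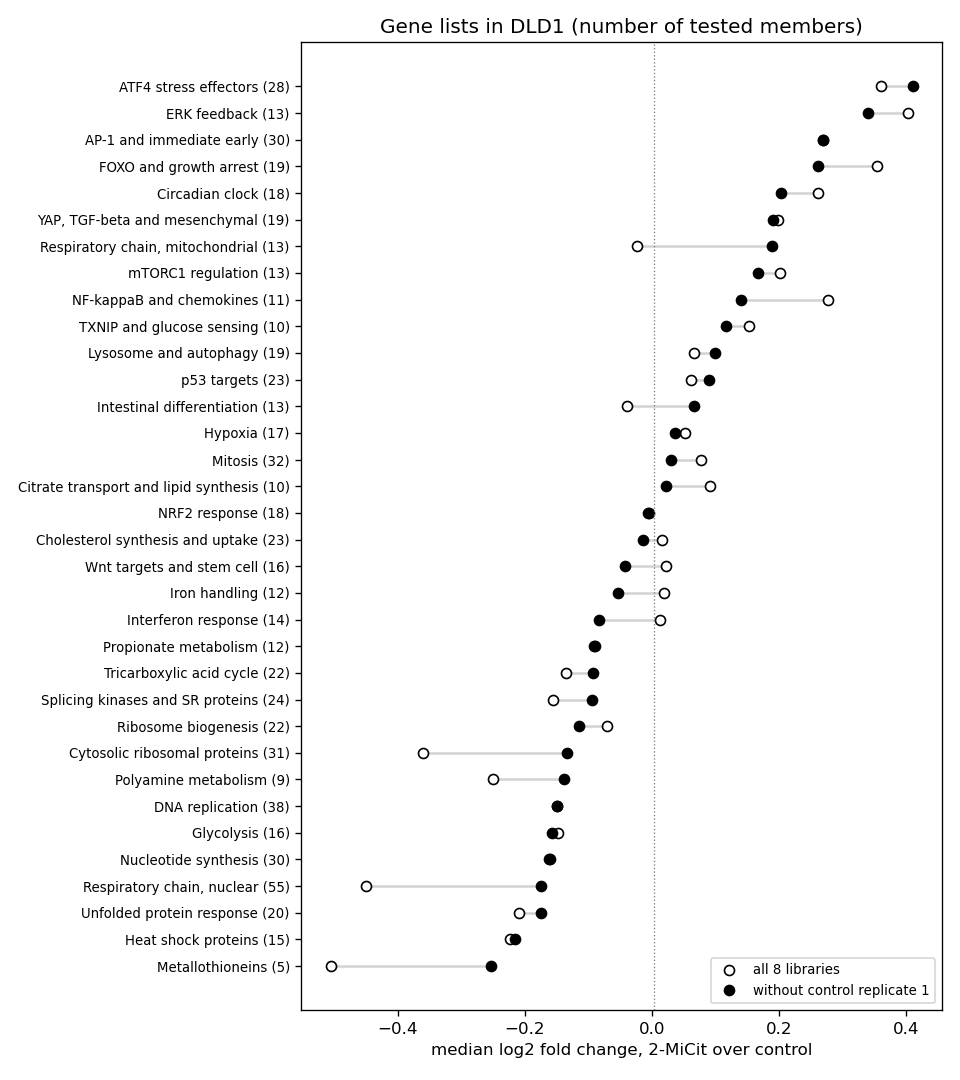
Median log2 fold change, 2-MiCit over control (horizontal axis), of each gene list with at least 5 tested members (vertical axis, number tested in brackets), from the 8-library fit (open circles) and the fit without control replicate 1 (filled circles); the dotted line is the median of all tested genes. ATF4 stress effectors lie highest at 0.41 and heat shock proteins at -0.22 in the fit without control replicate 1, and the respiratory chain, ribosomal protein and metallothionein lists shift most between the fits.

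The genes that fell in the 7-library fit included 4 chaperones, HSPA5 and 3 heat shock proteins. Of 15 tested heat shock proteins, 0 lay above 0 in either fit, 0 were called in the 8-library fit and 3 were called lower in the 7-library fit. The medians were -0.22 in each (log2; -0.223 and -0.215), and -0.214 with the length trend also removed. HSPA8 (HSC70), the constitutive cytosolic chaperone, had 2812, 2697, 2535 and 2596 CPM with 2-MiCit, against 3932, 3749, 3412 and 3459 CPM in controls. The groups are separate with or without control replicate 1, and the log2 fold change was -0.45 (SE 0.09, adjusted p 0.107) and -0.41 (SE 0.07, adjusted p 0.023). HSP90AB1, the constitutive HSP90, had 3146, 3338, 3369 and 3215 CPM with 2-MiCit, against 4473, 3950, 3997 and 4227 CPM in controls; its adjusted p in the 7-library fit lay just under the threshold (log2 -0.31, adjusted p 0.04998). HSPH1 (HSP105), a nucleotide exchange factor of HSPA8, had 279, 292, 278 and 272 CPM with 2-MiCit, against 280, 334, 334 and 343 CPM in controls, so that control replicate 1 alone overlaps the treated libraries (log2 -0.26 without it, adjusted p 0.0479). The mitochondrial chaperones HSPD1 and HSPE1 lay at -0.25 and -0.41 and were not called.

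**Figure D4:**
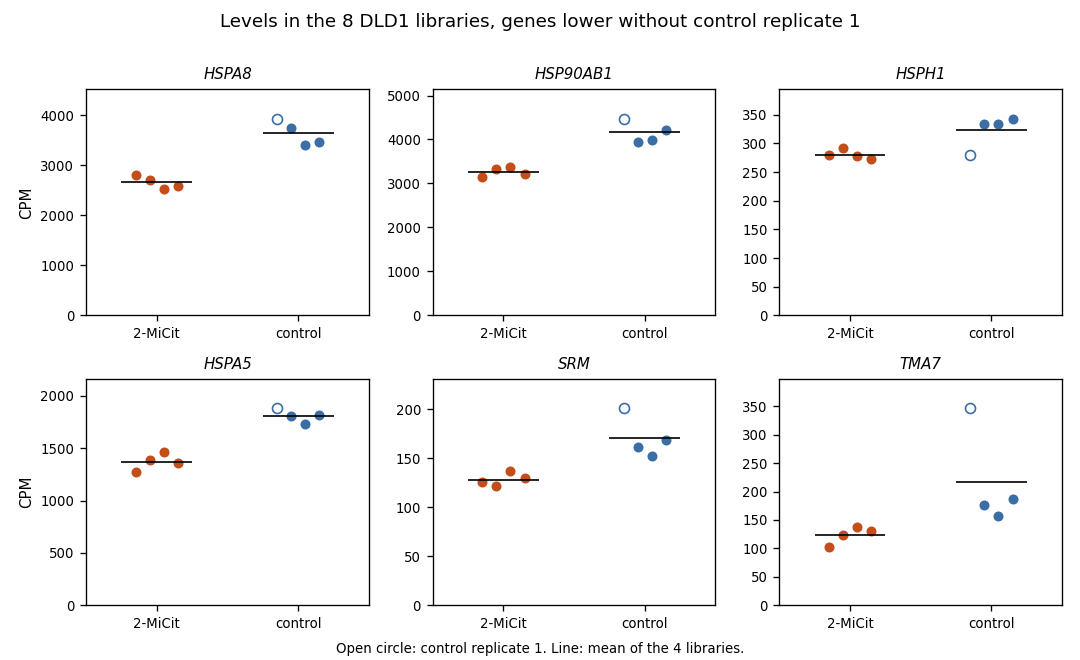
Level in CPM (vertical axis, from 0) of 6 genes called lower in the fit without control replicate 1, in the 4 2-MiCit libraries (orange, left) and the 4 control libraries (blue, right), with control replicate 1 as an open circle and the mean of 4 libraries as a line. The groups are separate in HSPA8, HSP90AB1, HSPA5, SRM and TMA7; in HSPH1 control replicate 1 (280 CPM) lies among the treated libraries, and in TMA7 it is the highest by far (346 CPM).

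The other genes lower in the 7-library fit had varied roles. SRM, spermidine synthase, had 125, 121, 137 and 130 CPM with 2-MiCit, against 201, 161, 152 and 168 CPM in controls (log2 -0.32, adjusted p 0.0358). POLR3G, a subunit of RNA polymerase III, had 41.0, 50.4, 49.8 and 46.6 CPM with 2-MiCit, against 67.5, 65.0, 62.2 and 67.1 CPM in controls (log2 -0.46, adjusted p 0.023). Both sets of libraries are separate in each gene, also with control replicate 1. TMA7 lay at -0.50 without control replicate 1 and at -0.82 with it (adjusted p 0.0456 and 0.214). KDELR3, a receptor that returns chaperones to the endoplasmic reticulum, CTSV, NEIL2 and ANXA6 were also called lower, and 2 further genes had no symbol. HGH1, MANEAL, METTL7B and SCEL lay at -0.37, -0.33, -0.55 and -0.43 (adjusted p 0.0367, 0.0381, 0.0454 and 0.0475). PHRF1 had 9.88, 8.14, 7.40 and 9.47 CPM with 2-MiCit, against 12.5, 18.9 and 17.8 CPM in controls 2 to 4, while control replicate 1 held 0.0724 CPM, so its call rests on leaving that library out. SERF1A has a near-identical copy and PMS2P8, the 1 lower gene past 2-fold, belongs to a family of near-identical pseudogenes, so both calls are uncertain. Among the higher genes, PMS2P14 of that family and the pseudogene FAM86B3P lay at 7.29 and 7.22 (log2) in the 7-library fit. With all 8 libraries PMS2P14 lay at 1.16 and FAM86B3P was not tested, so these calls are uncertain too.

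Lists for growth lay mostly below 0 without called members. Of 38 tested genes of DNA replication, 36 lay below 0 in the 7-library fit and 32 in the 8-library fit, with a median of -0.149 (log2) in each, and 0 were called; GINS2 (-0.36, adjusted p 0.0772) and GINS3 (-0.31, adjusted p 0.0674), subunits of the replicative helicase, had the smallest p. Of 30 genes of nucleotide synthesis 29 lay below 0 in the 7-library fit, with a median of -0.16; IMPDH2, the first step of guanine nucleotide synthesis, lay at -0.28 (adjusted p 0.083). Mitosis genes did not share this: 19 of 32 lay above 0, with a median of 0.03. Glycolysis lay at a median of -0.16, with 13 of 16 genes below 0 and 0 called.

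For short transcripts the value depended on control replicate 1. The 31 tested cytosolic ribosomal protein genes (median transcript 712 bases) had a median log2 fold change of -0.36 in the 8-library fit and -0.13 in the 7-library fit, and -0.09 there with the length trend removed. The 55 nuclear genes of the respiratory chain (684 bases) had medians of -0.45 with control replicate 1, -0.17 without it and -0.15 with the length trend also removed. None of either list was called. The 13 mitochondrially encoded respiratory genes (784 bases) had a median of -0.0242 with all 8 libraries and 0.19 in the 7-library fit, where 12 lay above 0 and 0 were called. With the length trend removed these medians were 0.0982 and 0.239, both above 0. The 5 tested metallothionein and zinc genes (683.5 bases) had medians of -0.51 and -0.25, and -0.42 and -0.22 with the trend removed, with 0 called. MT-ND5 spread widely within groups, with 2623, 1219, 1211 and 1525 CPM with 2-MiCit, against 950, 1183, 1666 and 930 CPM in controls. The nuclear MTRNR2L genes are near-copies of mitochondrial ribosomal RNA, so their reads are uncertain. Of 6 tested, 5 were called higher in the 7-library fit and 0 in the 8-library fit, and control replicate 1 was the highest of all 8 libraries in 4 of them.

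The pathways nearest to the compound itself held no called gene. Of 22 tested genes of the tricarboxylic acid cycle, 0 were called in either fit, and the median log2 fold change was -0.09 in the 7-library fit, with 18 below 0. The cytosolic aconitase ACO1, which converts citrate to isocitrate, lay at -0.13, and the isocitrate dehydrogenases IDH1, IDH2, IDH3A, IDH3B and IDH3G at -0.15, -0.08, -0.06, -0.09 and -0.09. Citrate synthase (CS) lay at -0.05. MDH1 and SDHC had the most negative values, -0.24 and -0.27 (adjusted p 0.22 and 0.117). The mitochondrial citrate carrier SLC25A1 lay at -0.13, ATP citrate lyase (ACLY) at 0.00906, FASN at 0.14 and the plasma membrane citrate carrier SLC13A5 at 0.56, the last at a mean of 1.38 CPM with 2-MiCit and 0.93 CPM in the 3 controls, with 0 of 10 genes of that list called. Of 12 tested genes of propionate metabolism 0 were called: the carboxylase subunits PCCA and PCCB lay at 0.14 and -0.11, the mutase MMUT at 0.06 and the epimerase MCEE at -0.38 (adjusted p 0.218). The SE of these log2 values lay between 0.06 and 0.15, and was 0.28 for SLC13A5. Some uncalled values here were as large as those of called genes: MCEE lay at -0.38, while HSPH1 was called lower at -0.26. The absence of a call therefore does not show the absence of a change.

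The genes called in DLD1 were looked up in the 6 other lines, which differ widely in how many genes were called at all, and no difference in these counts between lines was tested. Of the 19 genes of the 8-library fit that could be tested in HCT116, 19 were called higher there, where 19% of all tested genes were called higher. Of the 163 genes of the 7-library fit, 154 were tested in HCT116, and 98 were called higher and 4 lower. LoVo called 4 of 19 higher and 0 lower (background 1.59% and 0.702%), HT29 2 higher and 0 lower of 19 (4.65% and 3.02%), SW1417 3 higher and 2 lower of 19 (2.94% and 4.05%), SKCO1 5 higher and 6 lower of 20 (8.1% and 10.8%) and SW948 0 of 18 (0%). Of the 163 genes, LoVo called 14 higher of 155 tested, HT29 13 higher of 155, SKCO1 32 higher and 25 lower of 162, SW1417 8 higher and 11 lower of 156 and SW948 0 of 154. The lines of the other count table were sequenced to greater depth, so counts of calls are not comparable between tables. Of the 20 genes lower in the 7-library fit, 11 of 17 tested were lower in HCT116 too, where the background was 18%. Of these 20 genes SKCO1 called 7 lower and 1 higher of 18 tested (10.8% and 8.1%), LoVo 3 lower of 17 (0.702%), SW1417 3 lower of 20, HT29 1 lower of 19 and SW948 0 of 19. Each line has its own controls.

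**Figure D5:**
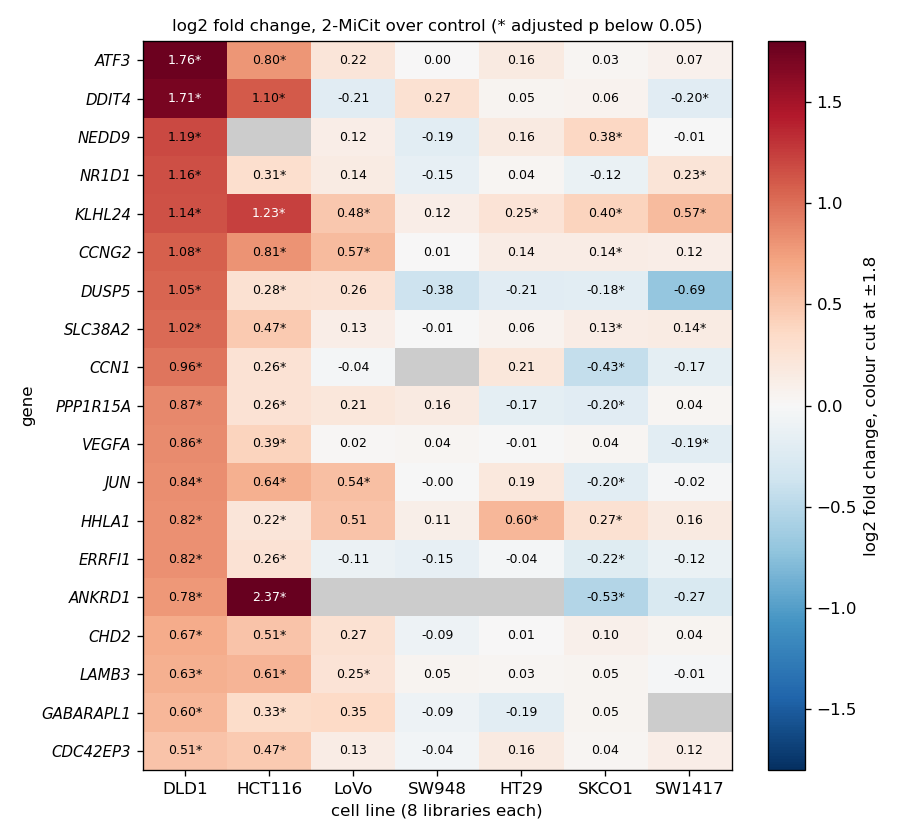
log2 fold change, 2-MiCit over control, of the 19 named genes of the 8-library fit (rows) in DLD1 and the 6 other lines (columns), 8 libraries a line, with an asterisk at an adjusted p below 0.05 and grey where the gene was not tested. DLD1 has an asterisk for each row because the genes were chosen there; in HCT116 every tested gene has one, and the values in SW948 lie between -0.38 and 0.27.

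The difference between lines was tested within the count table that DLD1 shares with HCT116, LoVo and SW948, as the log2 fold change in DLD1 minus the mean of the other 3. This fit shares 1 estimate of the spread among the 4 lines, while the DLD1 fits above estimate it from DLD1 alone. With the shared estimate DLD1's own change was called higher in 733 genes and lower in 619, beside 20 and 0. Its p-values are therefore not comparable with those of the DLD1 fits. Of 15800 tested genes, 145 had a higher value in DLD1 (0.918%) and 182 a lower one (1.15%). Without DLD1 control replicate 1 the counts were 65 (0.409%) and 72 (0.453%), of which 56 and 67 were shared with the full set. The 20 genes of the 8-library fit were called in 16 cases, all with a higher value in DLD1, and in 12 without control replicate 1. These genes were chosen for their rise in the same DLD1 libraries, so a higher value in DLD1 was favoured in advance. The count is no separate evidence of a stronger response. The rise of ATF3 exceeded the mean of the other lines by 1.40 (log2; SE 0.12, edgeR adjusted p 2.01e-08), and the fold changes were 1.76 in DLD1, 0.80 in HCT116, 0.22 in LoVo and 0.00464 in SW948 (log2). DDIT4 differed by 1.32 (adjusted p 0.000579), with 1.10 in HCT116 and -0.21 in LoVo, and NR1D1 by 1.05 (adjusted p 3.12e-06), with 0.31 and 0.14. CCN1 differed by 1.05 (adjusted p 0.000401), DUSP5 by 0.98 and ERRFI1 by 0.81 (adjusted p 0.00043 each). CCN1 had too few counts to be tested in SW948 alone, yet SW948 entered the mean. Its difference is larger than its own rise of 0.96 in DLD1 (log2), so the size of that difference is uncertain. KLHL24, CCNG2 and JUN rose in several lines: KLHL24 had a log2 fold change of 1.23 in HCT116, 0.48 in LoVo and 0.57 in SW1417, and its difference was not called (0.52, adjusted p 0.0708).

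IFRD1 and ZIC2 also stood higher in DLD1 by the test of the difference. IFRD1, a regulator of differentiation that the stress response controls, had 77.7, 94.2, 96.8 and 82.7 CPM with 2-MiCit, against 69.7, 71.3, 64.9 and 67.9 CPM in DLD1 controls. It lay at 0.36 in DLD1 (adjusted p 0.189) and fell in HCT116 and LoVo (log2 -0.30 and -0.50, adjusted p 0.0009 and 0.00188), a difference of 0.64 (adjusted p 8.36e-06). ZIC2, a zinc finger factor, lay at 0.41 in DLD1 and -0.16 in HCT116 (difference 0.46, adjusted p 0.000352). Of the 182 genes with a lower value in DLD1, 117 were called higher in HCT116, and 0 were called in DLD1 by the 8-library fit. Of the 145 with a higher value, 42 were called lower in HCT116 and 16 were called in DLD1. HCT116 called 19% of all its tested genes higher and 18% lower. The difference subtracts the HCT116 change as part of a mean, so a rise in HCT116 lowers it by construction. FAM210B lay at -0.26 in DLD1 and 0.77 in HCT116 (log2; difference -0.59, adjusted p 0.000159), TP53I3 at -0.20 and 0.89 (difference -0.77, adjusted p 0.000773), and DGAT2, which makes triglycerides, at -0.09 and 1.25 (difference -0.57, adjusted p 0.000795). EPHX2, EPN3 and CTDSPL followed, with differences of -0.63, -0.56 and -0.40. Without DLD1 control replicate 1 these 8 genes kept their calls, with adjusted p between 1.55e-05 and 0.00416.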

How the data were processed

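RNA was sequenced from 56 libraries of 7 colorectal cancer lines, 4 with 2-MiCit and 4 with water in each line. The authors deposited raw counts per gene in one table for DLD1, HCT116, LoVo and SW948 and another for HT29, SKCO1 and SW1417; the submitters' processing notes name bcl2fastq 2.20.0, Trimmomatic 0.39, Salmon 1.5.0, DESeq2 and the build GRCh38.p13, with no settings. Salmon shares reads among similar transcripts, so values of near-identical copies are uncertain. Symbols and lengths were taken from GENCODE 29 and promoter windows from RefSeq on GRCh38.p14.

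The deposited counts were filtered with filterByExpr, scaled by TMM and tested with edgeR 4.0.16 (quasi-likelihood, robust; R 4.3.3) on the DLD1 libraries alone, with Benjamini-Hochberg adjustment over all tested genes and a threshold of 0.05. The difference between lines was a contrast in a fit over the 32 libraries of the first table. Steps were tested on simulated counts. Alternatives were leaving out each library, a replicate block, other scalings and filters, DESeq2 1.42.0, limma 3.58.1 (voom with quality weights), 1 fit over 4 lines, and removal of the length trend by a smooth curve per library. CPM per library is given beside each test, from totals of 14.2 to 16.6 M counts; intervals of depth cover counting only.

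Members and gene lists (39) were chosen with earlier results of these data known. Genes named were those with a symbol called with all 8 libraries, the 12 higher and 12 lower of smallest p called without control replicate 1 (at least 5 CPM, groups not overlapping), up to 4 called members of each list or else the 2 of smallest p, and the 6 higher and 6 lower of smallest p in the test between lines. Members of the clock, ERK feedback, tricarboxylic acid, citrate and propionate lists could be named freely. Any other gene was named after its values were seen. A few list members are counted in their lists and not reported here by name.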

Additional observations from a re-analysis of the deposited data

Results flagged for a closer look

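In 218 groups of 4 libraries looked at, 21 had 1 library far from the other 3 by Dixon's criterion, which chance gives in about 1 of 20 groups. Control replicate 1 was that library in 18 of them. Nearly all groups were those of named genes, and many genes were named because they were called only without control replicate 1. A departure of that library was thus favoured in advance. These counts do not measure how often it departs over all genes, and cannot be set against the chance rate. It was the highest control for KLF6 (149.5 CPM, others at most 99.5), GDF15 (467.3, others at most 266), MTRNR2L10 (64.88), TMA7 (346.1), NOP56 (521.1), RPL38 (915.9), MT-ND3 (1042), FTL (1166), SRSF5 (230.1), ISG15 (121.6), IFI6 (17.81), MT1E (532.9), VWF (0.7241) and SYP (2.462). It was the lowest control for CHD2 (62.2 CPM), HSPH1 (279.7), AEN (86.02) and TXNRD1 (339.5). VWF and SYP, markers of endothelial and neural cells, were at or below 2.462 CPM in the control libraries. The other 3 were 2-MiCit replicate 1 for CDC42EP3 (178 CPM, highest) and SRSF5 (158.9 CPM, lowest), and 2-MiCit replicate 3 for FAM210B (20.37 CPM, highest).

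For 32 named genes the log2 fold change in DLD1 differed from the mean of HCT116, LoVo and SW948 by edgeR's test of that difference in all 8 DLD1 libraries. Many were named because they were called in DLD1 or by this test, so their number does not measure how common such differences are. Without control replicate 1 the sign was the same in each, but 9 lost the call, with adjusted p of 0.0618 for FOSL2, 0.0629 for JUN, ABL2 and ULK1, 0.0637 for CDC42EP3, 0.0599 for CHD2, 0.0931 for CCNG2, 0.11 for RBM3 and 0.157 for SDHC (edgeR), and 23 kept it. Among stress and early response genes the differences were 1.405 for ATF3, 1.317 for DDIT4, 0.6521 for PPP1R15A, 0.8169 for SLC38A2, 0.4401 for JUN, 0.5101 for FOSL2, 0.5527 for KLF6, 1.046 for CCN1 and 0.6401 for IFRD1. Among regulators of growth signalling they were 0.9821 for DUSP5, 0.3577 for DUSP4, 0.8059 for ERRFI1, 1.086 for NEDD9, 0.6614 for ABL2, 0.3171 for CDC42EP3 and 0.3182 for LAMB3. The others with a higher value in DLD1 were NR1D1 (1.047), VEGFA (0.6939), CCNG2 (0.6053), CHD2 (0.4281), ULK1 (0.4443), AEN (0.3789) and ZIC2 (0.4647). A lower value in DLD1 was found for METTL7B (-0.614), SDHC (-0.3717), RBM3 (-0.3163), FAM210B (-0.588), EPHX2 (-0.6267), EPN3 (-0.5559), CTDSPL (-0.3965), TP53I3 (-0.7681) and DGAT2 (-0.5697). CCN1 had too few counts to be tested in SW948 alone, and NEDD9 in HCT116 alone. Those lines still entered the mean, so the sizes of these differences are uncertain.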

How the results depend on the processing

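The count of higher genes in DLD1 rested on single libraries more than on scaling. Leaving out 1 library gave 1 to 163 higher genes, beside 20: 163 without control replicate 1, only 1 (ATF3) when 2-MiCit replicate 2 or either of the controls 2 and 4 was left out, 2 without 2-MiCit replicate 3, 6 without control replicate 3, and 10 and 12 without 2-MiCit replicates 1 and 4. Lower genes ranged from 0 to 20, with 20 without control replicate 1. DESeq2 called 347 higher and 164 lower, and 429 and 230 without control replicate 1; limma voom with quality weights called 488 and 243, and 1 fit over 4 lines 733 and 619. Of the 163 genes, DESeq2 with 8 libraries called 134 in the same direction, and no called gene reversed under any alternative run. A stricter filter gave 40 higher. Removal of the length trend gave 38 higher and 1 lower, and 241 and 52 without control replicate 1. Other scalings gave 18 and 19, and no filter 20. The cause of these shifts was not tested.

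With the replicate number as a block 0 genes were higher, also with the length trend removed (0), and ATF3 had an adjusted p of 0.164. Deviations of same-numbered libraries correlated at -0.621, 0.193, -0.725 and -0.108 over 8468 genes. Correlations of the treated libraries with control replicate 1, which stood apart by its length trend, ranged from -0.621 to 0.733. Such values can reflect that trend, so they cannot decide whether the replicate numbers pair the libraries. For the difference between lines the block gave 123 genes, beside 327.

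That count of 327 ranged from 120 (without 2-MiCit replicate 1) to 488 (without control replicate 3) on leaving out a DLD1 library, with 137, 176 and 188 without control replicate 1, 2-MiCit replicate 2 and control replicate 2, and 206 without 2-MiCit replicate 4. DESeq2 gave 818 and removal of the length trend 551. Genes near 1 CPM had too few counts for small changes to be seen.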

Other observations

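Several lists held no called gene in DLD1 in the 7-library fit, and their values are given as description. Of 13 tested genes of intestinal differentiation, 7 lay above 0, with a median log2 fold change of 0.0668; KRT20, a keratin of mature colon cells, lay at -0.43 (adjusted p 0.114) and VIL1, the brush border protein villin, at 0.29 (adjusted p 0.277). Of 24 splicing factors and kinases 7 lay above 0; SRSF5 lay at -0.23 (adjusted p 0.0959) and CLK1, a kinase that acts on such factors, at 0.31 (adjusted p 0.11). TFRC, the receptor for iron-loaded transferrin, lay at -0.32 (adjusted p 0.0654) among 12 genes of iron handling. Of 22 genes of ribosome assembly 20 lay below 0, with a median of -0.115 and NOP56 at -0.23 (adjusted p 0.0775). Of 14 interferon genes 5 lay above 0, and MX1 lay at 0.17 and OAS1 at -0.17.

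Stem cell genes did not move in one direction. SOX9 was the called member of 16 tested Wnt and stem cell genes, while SP5 lay at -0.39 (adjusted p 0.107) and ASCL2 at -0.29 (adjusted p 0.156). Among 5 tested metallothionein and zinc genes, MT1X lay at -0.46 and MT1E at -0.36 in the 7-library fit (adjusted p 0.164 and 0.168), against -0.68 and -0.69 with control replicate 1.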
